A study of Mus musculus with 9 samples.

Results

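Bulk RNA-seq of dendritic cells (DCs) sorted from mouse spleens was searched for genes that stood high in every sample of T-DCs, the CD11c+ cells with low surface MHCII of spleens with T-cell acute lymphoblastic leukemia (T-ALL). T-DCs were compared with N-mDCs, the mature conventional DCs of normal spleens, and T-mDCs, the mature conventional DCs of leukemic spleens, with 3 samples per group and 9 samples in all. A protein-coding gene was taken as a member if its lowest T-DC value was at least 5 FPKM (a read count scaled to gene length and library size) and at least 2 times its highest value among the 6 N-mDC and T-mDC samples, leaving out the gene names that start with Ms4a, Hist or Igf. The rule chose 25 of 22046 protein-coding genes (0.113%), out of 54532 genes of all kinds, and the name filter removed 0 genes. Because the T-DC values chose the members, their excess in T-DCs is described and not tested.

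The mice were young adult C57BL/6J or C57B6.SJL females. Normal mice carried no leukemia, and leukemic mice had received T-ALL cells driven by the intracellular domain of Notch1 and marked with GFP, without irradiation, and were analysed at the late stage. All 3 groups were enriched with CD11c beads after red cell lysis and sorted from a gate that removed leukemia, T, B and NK cells, and the MHCII level was itself the sort gate between T-DCs and T-mDCs. Neither the labels nor the methods say whether samples are separate animals or pools, so p-values measure only the spread between these samples. The labels call T-DCs immature DCs, and the 12 DC-defining genes, MHCII genes tied to the gate included, were low in them: 11 of 12 were lower in every T-DC sample than in every other sample. Cd74, the invariant chain of MHCII and tied to the gate, was 1143, 837 and 326 FPKM in T-DCs 1 to 3 and between 6167 and 13338 FPKM in the other samples. Flt3, the receptor of the DC growth factor, was 15.4, 6.11 and 4.48 FPKM in T-DCs 1 to 3 against 44.4 to 89.1 FPKM elsewhere, and Zbtb46, a transcription factor of conventional DCs, was 1.84, 2.84 and 3.42 FPKM against 10.7 to 23.5 FPKM. Itgax, which encodes CD11c, was 152, 90.4 and 43.0 FPKM in T-DCs 1 to 3 against 158 to 230.2 FPKM elsewhere.

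T-DC 1 stood apart from T-DC 2 and T-DC 3 in its marker genes. The 23 measured erythroid marker genes summed to 706 FPKM in T-DC 1, 63373 FPKM in T-DC 2 and 46253 FPKM in T-DC 3, against 138.9 to 5464 FPKM in N-mDCs and 56.9 to 237 FPKM in T-mDCs, with the globin gene Hbb-bt at 68.6, 8485 and 5521 FPKM in T-DCs 1 to 3. The 21 neutrophil genes summed to 156, 4800 and 1709 FPKM in T-DCs 1 to 3, against 235 to 1037 FPKM in N-mDCs and 51.7 to 71.8 FPKM in T-mDCs, with S100a8 at 2.33, 970.4 and 348 FPKM in T-DCs 1 to 3. The 21 nonclassical monocyte genes ran the other way, with sums of 8600, 4271 and 2913 FPKM in T-DCs 1 to 3, 2759 to 3488 FPKM in N-mDCs and 2741, 1053 and 1061 FPKM in T-mDCs 1 to 3. A gene high in all 3 T-DC samples therefore had to be high in libraries of different makeup. In bulk samples, a change in the share of a cell type and a change of RNA per cell cannot be told apart.

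**Figure D1:**
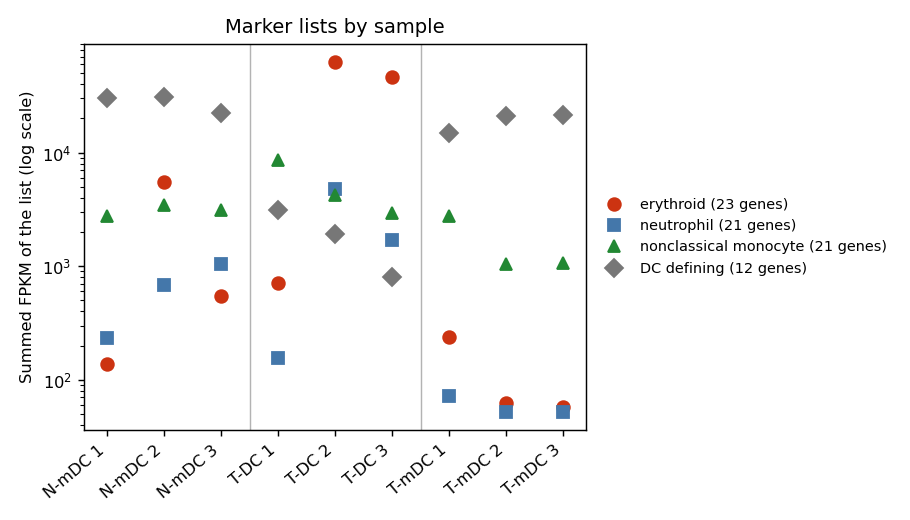
Summed FPKM (log scale) of 4 marker lists in each of the 9 samples, 1 symbol per list. T-DC 2 and T-DC 3 carry the highest erythroid sums, T-DC 1 the highest nonclassical monocyte sum, and all 3 T-DC samples the lowest sums of the DC-defining genes.

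The T-DC 1 sample set the size of the group. Taken alone, T-DC 1 had 288 protein-coding genes past both limits, T-DC 2 had 890 and T-DC 3 had 1080. T-DC 2 and T-DC 3 shared 732 of them, which is 82.2% of the genes of T-DC 2 and 67.8% of those of T-DC 3. T-DC 1 shared 55 genes with T-DC 2 (19.1% of its own and 6.18% of the other's) and 31 with T-DC 3 (10.8% of its own and 2.87% of the other's). The 25 members were 8.68% of the genes of T-DC 1, 2.81% of those of T-DC 2 and 2.31% of those of T-DC 3. Without T-DC 1 the rule would have chosen 732 genes.

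**Figure D2:**
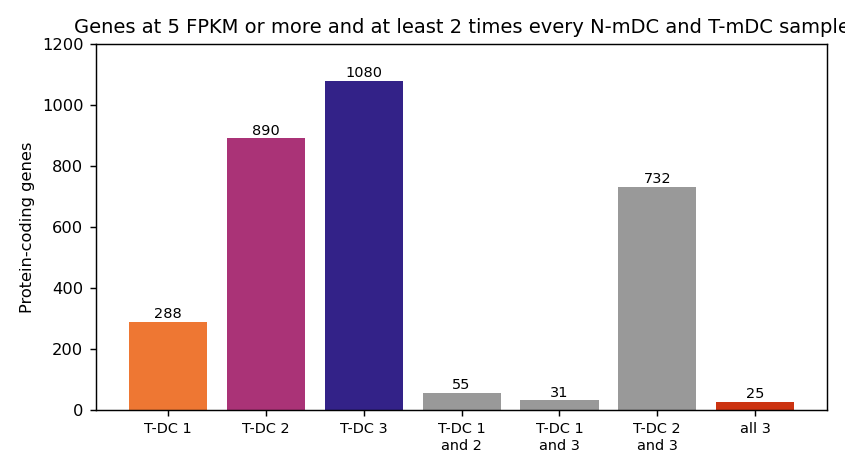
Bars give the number of protein-coding genes with at least 5 FPKM and at least 2 times the highest N-mDC or T-mDC value in each T-DC sample, in each pair and in all 3. The overlap of T-DC 2 and T-DC 3 (732 genes) stands far above both overlaps with T-DC 1 (55 and 31 genes) and the 25 genes of all 3.

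The products of the 25 genes have different known functions. As background, Nfe2 and Lyl1 are transcription factors of blood progenitors and of erythroid and megakaryocytic cells, and Cdkn2d belongs to the INK4 inhibitors, which hold back the kinases that start the cell cycle. Ikbke is a kinase of the antiviral interferon response, Arrb1 is an adaptor that ends signalling of G protein-coupled receptors, and Thbd is the thrombin receptor that turns on the anticoagulant protein C. The others are grouped below by what their products are known to do, a grouping made after the values were seen.

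**Figure D3:**
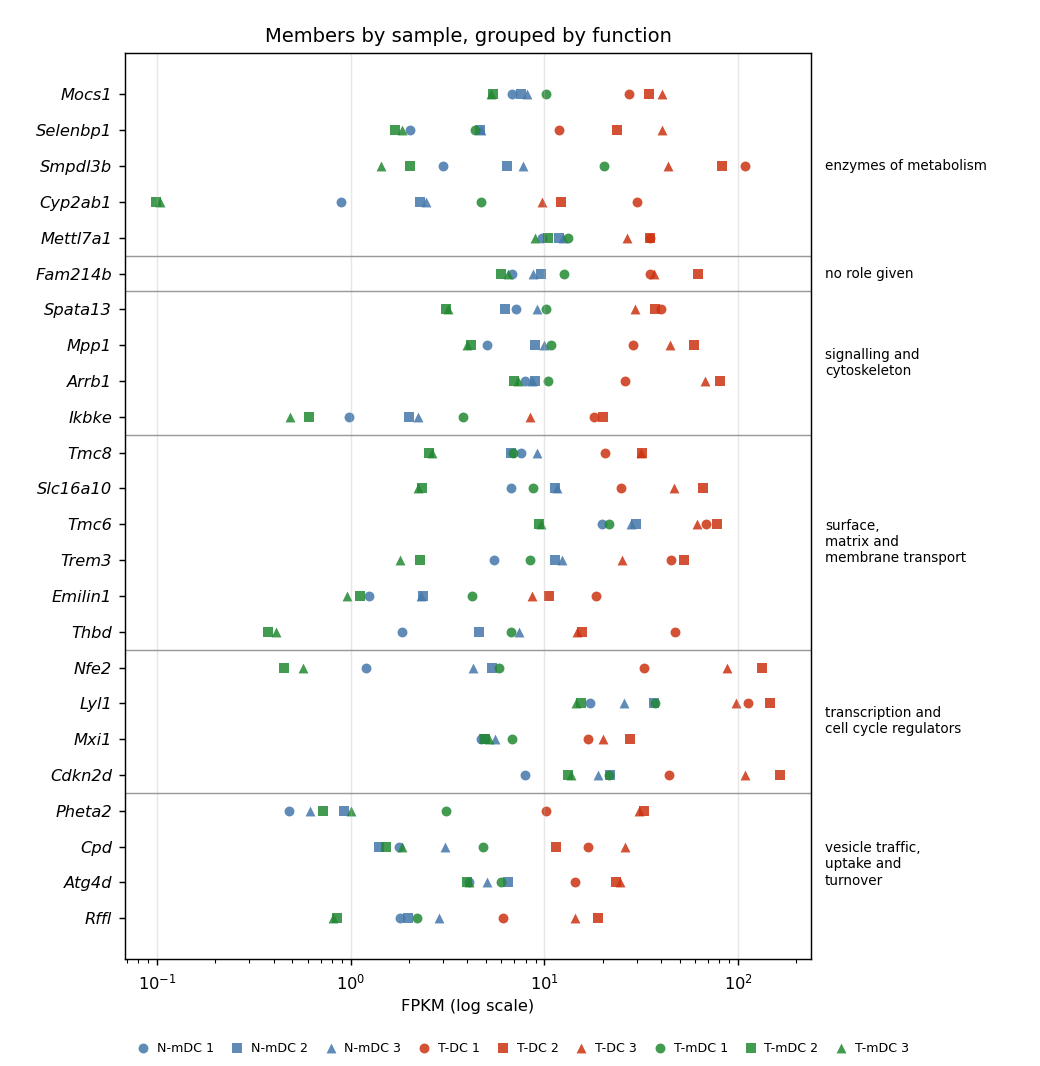
FPKM (log scale) of 24 of the 25 genes in each of the 9 samples, grouped by function, with colour for the group and the symbol for the replicate. In every row the 3 red T-DC symbols lie to the right of all others, which is the rule itself, and T-mDC 1 (green circle) lies to the right of T-mDC 2 and T-mDC 3.

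Transcription and cell cycle regulators made up 4 of the 25 members, among them the gene furthest above the limit. Nfe2, the hematopoietic subunit of the NF-E2 factor, was 32.6, 134 and 88.0 FPKM in T-DCs 1 to 3, 1.20, 5.38 and 4.28 FPKM in N-mDCs 1 to 3, and 5.85, 0.450 and 0.564 FPKM in T-mDCs 1 to 3. Its lowest T-DC value was 5.58 times its highest other value, the largest such ratio of the 25. All 3 T-DC samples were high, T-DC 2 most of all, and the mean of the T-DCs (84.8 ± 50.6 FPKM, SD, n = 3) was 23.4 times the mean of the N-mDCs and 37.0 times that of the T-mDCs. Nfe2 is also on the megakaryocyte and platelet list. Of its other genes, Itga2b was 0.348, 3.87 and 2.58 FPKM in T-DCs 1 to 3 and at most 2.20 FPKM elsewhere. Pf4 was 0.310, 7.34 and 3.75 FPKM in T-DCs 1 to 3 and reached 9.48 FPKM in N-mDC 2. Itgb3 was 25.3, 8.65 and 9.17 FPKM in T-DCs 1 to 3 and at most 5.59 FPKM elsewhere. Every T-DC sample was above every other sample for 3 of the 18 listed genes, Nfe2 among them, and 7 were below 1 FPKM in all T-DC samples. The 18 genes of that list, Nfe2 among them, summed to 73.5, 177 and 129 FPKM in T-DCs 1 to 3. Elsewhere they summed to 10.8 to 41.4 FPKM. Of the T-DC sums, 32.6, 134 and 88.0 FPKM were Nfe2 itself, against 0.450 to 5.85 FPKM of the sums elsewhere. The remainder, from the other listed genes, was still highest in the T-DC samples, by much less than the sums. The part of megakaryocytes and platelets in the level of Nfe2 was not tested. Its relatives Nfe2l1 and Nfe2l2, stress response factors of broad expression, had lowest T-DC values of 0.670 and 0.598 times their highest other value.

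Lyl1, a basic helix-loop-helix factor of blood stem and progenitor cells, had the highest floor of the 25 genes. It was 112, 146 and 97.8 FPKM in T-DCs 1 to 3, 17.1, 37.0 and 25.9 FPKM in N-mDCs 1 to 3, and 37.1, 15.4 and 14.7 FPKM in T-mDCs 1 to 3. The 3 T-DC samples lay within a factor of 1.49 of each other, and the ratio to the highest other sample was 2.64. Its closest relative Tal1, the erythroid and progenitor factor, showed another pattern, at 2.17, 208 and 168 FPKM in T-DCs 1 to 3. Lyl1 and Tal1 were thus both high in T-DC 2 and T-DC 3, and of the pair Lyl1 alone was above 100 FPKM in T-DC 1.

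Cdkn2d, which encodes the inhibitor p19INK4d of the cyclin D kinases, was 44.1, 165 and 109 FPKM in T-DCs 1 to 3, 7.96, 21.7 and 18.9 FPKM in N-mDCs 1 to 3, and 21.5, 13.2 and 13.6 FPKM in T-mDCs 1 to 3. T-DC 1 was 2.03 times the highest other sample and the other T-DC samples were far above it. The other INK4 genes were not high in every T-DC sample. Cdkn2a and Cdkn2b were at most 1.05 and 1.16 FPKM in T-DCs and highest in T-mDCs (10.1 and 19.0 FPKM in T-mDC 3). Cdkn2c was 7.42 FPKM in T-DC 1 and 72.8 and 72.2 FPKM in T-DC 2 and T-DC 3.

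Mxi1, a repressor that pairs with Max and opposes Myc, was 16.8, 27.7 and 20.2 FPKM in T-DCs 1 to 3 and between 4.69 and 6.78 FPKM in the other 6 samples. The other groups were nearly level, and the T-DC samples were all clear of them. Of its family, Mxd1 was 5.35, 46.6 and 25.2 FPKM in T-DCs 1 to 3 and 17.9 to 55.9 FPKM elsewhere, so its groups overlapped, and Max itself was 26.7 to 31.8 FPKM in T-DCs and 19.7 to 24.2 FPKM elsewhere.

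In all, 4 members act in signalling and the cytoskeleton. Spata13, an exchange factor for Rac and Cdc42 also called Asef2, was 39.9, 37.4 and 29.2 FPKM in T-DCs 1 to 3, 7.15, 6.26 and 9.17 FPKM in N-mDCs 1 to 3, and 10.2, 3.09 and 3.18 FPKM in T-mDCs 1 to 3. It was among the most even genes, with a highest over lowest T-DC value of 1.37. Arrb1, β-arrestin 1, was 26.1, 81.1 and 67.6 FPKM in T-DCs 1 to 3 and 7.0 to 10.4 FPKM elsewhere. Its partner Arrb2 ran the other way in T-DC 2 and T-DC 3, at 40.5 and 29.6 FPKM against 53.3 to 86.9 FPKM in N-mDCs and T-mDCs, with T-DC 1 at 74.4 FPKM.

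Ikbke, the inducible IKK-related kinase, was 18.0, 20 and 8.46 FPKM in T-DCs 1 to 3, 0.979, 1.99 and 2.24 FPKM in N-mDCs 1 to 3, and 3.80, 0.608 and 0.488 FPKM in T-mDCs 1 to 3. T-DC 3 was the lowest of the T-DCs and T-mDC 1 the highest of the rest. Its relative Tbk1 was 20.6 to 25.0 FPKM in T-DCs and 14.1 to 22.2 FPKM in the other samples, so the groups overlapped. Mpp1, the scaffold protein p55 of the red cell membrane skeleton that is also made in leukocytes, was 28.7, 59.1 and 44.5 FPKM in T-DCs 1 to 3 and 3.99 to 10.8 FPKM elsewhere. Gypc and Epb41, whose products bind the same skeleton, were 6.85 and 9.52 FPKM in T-DC 1. In T-DC 2 and T-DC 3, Gypc was 256 and 161 FPKM and Epb41 104 and 60.6 FPKM, and in the other groups they ran from 16.2 to 61.3 and from 5.98 to 7.67 FPKM.

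Another 5 members, of which 4 are described here, act in vesicle traffic, uptake and turnover. Pheta2, an endosomal protein that binds the phosphatase OCRL, had the next largest ratio after Nfe2, at 3.28. It was 10.2, 32.9 and 30.9 FPKM in T-DCs 1 to 3, 0.483, 0.919 and 0.615 FPKM in N-mDCs 1 to 3, and 3.10, 0.719 and 1.00 FPKM in T-mDCs 1 to 3. Its partner gene Pheta1 was 2.25 to 3.40 FPKM in T-DCs and 1.93 to 4.07 FPKM in the other samples, within the same range. The T-DC samples were all above the rest for Pheta2, and the groups overlapped for Pheta1.

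Cpd, the carboxypeptidase of the trans-Golgi network, was 16.8, 11.4 and 26.2 FPKM in T-DCs 1 to 3 and 1.39 to 4.83 FPKM elsewhere. Atg4d, a protease that processes Atg8 proteins in autophagy, was 14.3, 23.5 and 24.5 FPKM in T-DCs 1 to 3 and 3.97 to 6.52 FPKM elsewhere. Its relatives Atg4a, Atg4b and Atg4c were 6.5, 6.37 and 15.4 FPKM in T-DC 1, and the lowest T-DC value of each was 0.835 to 1.16 times its highest other value. Rffl, a ubiquitin ligase of endosomes, had the lowest floor of the 25 genes, at 6.15, 18.8 and 14.3 FPKM in T-DCs 1 to 3 against 0.808 to 2.86 FPKM elsewhere.

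A further 6 members encode surface, matrix or membrane transport proteins. Tmc6 and Tmc8, the EVER genes whose loss in people causes susceptibility to skin papillomaviruses, lie head to head on chromosome 11 and overlap by 123 bases on opposite strands (Tmc6 at 117765988 to 117782198, Tmc8 at 117782076 to 117793110). Tmc6 was 68.5, 77.8 and 61.1 FPKM in T-DCs 1 to 3, 19.9, 29.7 and 28.0 FPKM in N-mDCs 1 to 3, and 21.6, 9.44 and 9.61 FPKM in T-mDCs 1 to 3. Tmc8 was 20.7, 32.1 and 31.4 FPKM in T-DCs 1 to 3, 7.58, 6.71 and 9.14 FPKM in N-mDCs 1 to 3, and 6.88, 2.54 and 2.62 FPKM in T-mDCs 1 to 3. Both genes were lowest in T-mDC 2 and T-mDC 3. The family members Tmc4 and Tmc7 were at most 1.42 FPKM in any sample.

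Thbd, thrombomodulin, and Emilin1, a glycoprotein of elastic fibres, were members with T-DC 1 as the highest sample. Thbd was 47.1, 15.7 and 14.8 FPKM in T-DCs 1 to 3, 1.84, 4.62 and 7.35 FPKM in N-mDCs 1 to 3, and 6.70, 0.375 and 0.409 FPKM in T-mDCs 1 to 3. Emilin1 was 18.4, 10.5 and 8.62 FPKM in T-DCs 1 to 3 and 0.958 to 4.25 FPKM elsewhere. Procr, the receptor that holds protein C on the cell surface, was 1.73, 0.890 and 0.551 FPKM in T-DCs 1 to 3 and 7.04 to 13.5 FPKM elsewhere, opposite to Thbd. Emilin2, the relative of Emilin1, fell just short of the rule, with 59.7, 65.8 and 60.2 FPKM in T-DCs 1 to 3 and a ratio of 1.96 to N-mDC 3 (30.4 FPKM).

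Trem3, an activating receptor of myeloid cells that signals through DAP12, was 45.2, 52.8 and 25.2 FPKM in T-DCs 1 to 3, 5.47, 11.3 and 12.3 FPKM in N-mDCs 1 to 3, and 8.42, 2.29 and 1.81 FPKM in T-mDCs 1 to 3. Trem1 of the same cluster was 37.3, 30.4 and 20.9 FPKM in T-DCs 1 to 3 and reached 42.7 FPKM in N-mDC 3, so its groups overlapped. Slc16a10, a transporter of aromatic amino acids and thyroid hormone, was 24.8, 66.0 and 46.8 FPKM in T-DCs 1 to 3, 6.75, 11.3 and 11.6 FPKM in N-mDCs 1 to 3, and 8.76, 2.33 and 2.22 FPKM in T-mDCs 1 to 3. The T-DC samples all lay above the N-mDCs, which lay above T-mDC 2 and T-mDC 3. Slc7a5, another carrier of large neutral amino acids, was 9.62 FPKM in T-DC 1 and 159 and 125 FPKM in T-DC 2 and T-DC 3, against 10.1 to 17.2 FPKM elsewhere.

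The last large group, 5 members, are enzymes of metabolism. Smpdl3b, a membrane-anchored phosphodiesterase known to damp Toll-like receptor signals in macrophages, was 109, 82.2 and 43.4 FPKM in T-DCs 1 to 3, 3.0, 6.38 and 7.71 FPKM in N-mDCs 1 to 3, and 20.3, 2.01 and 1.44 FPKM in T-mDCs 1 to 3. The T-DC mean (78.3 ± 33.0 FPKM, SD, n = 3) was 13.7 times that of the N-mDCs, and the margin of 2.14 was set by T-mDC 1 alone. Its relative Smpdl3a was 382, 145 and 134 FPKM in T-DCs 1 to 3 and at most 99.7 FPKM elsewhere (T-mDC 1), again with T-DC 1 highest and a ratio of 1.34. Mocs1, of the first step of molybdenum cofactor synthesis, was 27.4, 34.6 and 40.4 FPKM in T-DCs 1 to 3 and 5.33 to 10.2 FPKM elsewhere, while Mocs2, Mocs3 and Gphn of the later steps had lowest T-DC values of 0.887, 0.819 and 0.507 times their highest other value.

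Selenbp1, a methanethiol oxidase, was 11.9, 23.8 and 40.6 FPKM in T-DCs 1 to 3 and 1.68 to 4.70 FPKM elsewhere. Cyp2ab1, a cytochrome P450, was 30.2, 12.3 and 9.70 FPKM in T-DCs 1 to 3, 0.895, 2.27 and 2.45 FPKM in N-mDCs 1 to 3, and 4.68, 0.0987 and 0.104 FPKM in T-mDCs 1 to 3. Cyp2ab1 was nearly undetected in T-mDC 2 and T-mDC 3. Mettl7a1, a methyltransferase-like protein of lipid droplets, was 35.0, 35.0 and 26.8 FPKM in T-DCs 1 to 3 and 8.97 to 13.2 FPKM elsewhere. Fam214b, for which no role is given here, was 35.0, 62.4 and 36.7 FPKM in T-DCs 1 to 3 and 5.98 to 12.7 FPKM elsewhere.

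The T-DC samples were not equal for any of the 25 genes. A gene was called even when its highest T-DC value was at most 25% above its lowest, and 0 of 25 members met this, against 18.1% of the 5698 protein-coding genes with at least 5 FPKM in every T-DC sample. The smallest spread was 1.27 (Tmc6), and among the next were 1.31 (Mettl7a1), 1.37 (Spata13), 1.48 (Mocs1) and 1.49 (Lyl1). In all, 6 genes had a spread of at most 1.5, which is 24% of the members, against 40.7% of the 5698 genes. At the other end 15 of 25 (60%) had a spread of at least 2, against 34.3% of the 5698 genes, and the median spread was 2.13 among the members and 1.63 among the 5698 genes. Mettl7a1 came closest to equal values in T-DC 1 and T-DC 2, and T-DC 3 was lower there.

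By sample, 13 members (52%) were lowest in T-DC 1, where 38.4% of the 5698 genes were, 10 (40%) in T-DC 3, close to the 40.5% of the 5698 genes, and 2 in T-DC 2, and 15 were highest in T-DC 2, 6 in T-DC 1 and 4 in T-DC 3. Those highest in T-DC 1 included Smpdl3b, Thbd, Cyp2ab1, Emilin1 and Spata13, and T-DC 1 is the sample with the largest nonclassical monocyte sum. Thbd in T-DC 1 was 3.09 times the mean of T-DC 2 and T-DC 3, and Cyp2ab1 2.76 times. The genes far lower in T-DC 1 included Nfe2 at 0.295 of the mean of T-DC 2 and T-DC 3, Cdkn2d at 0.323 and Pheta2 at 0.319, and T-DC 2 and T-DC 3 are the samples with the large erythroid and neutrophil sums. The part of other cell types in these differences was not tested.

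**Figure D4:**
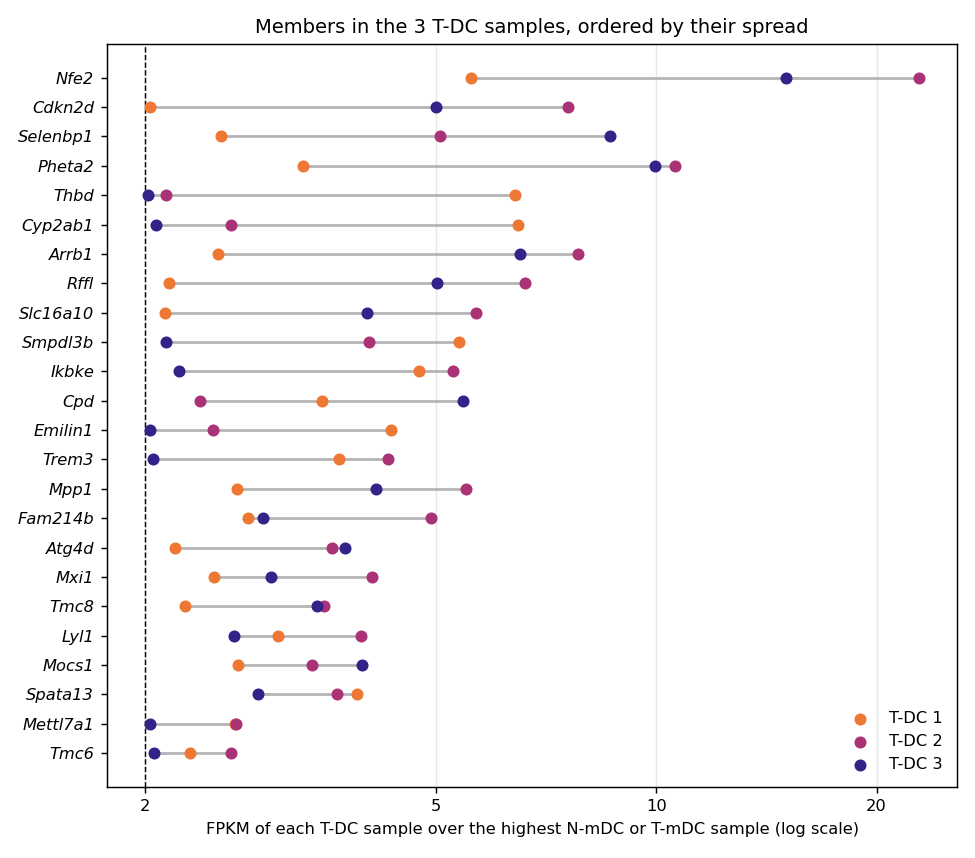
Each point is the FPKM of a T-DC sample divided by the highest N-mDC or T-mDC sample (log scale), with genes ordered by their spread over the 3 T-DC samples and a dashed line at the limit of 2. T-DC 1 is the point nearest the line in 13 of the 24 genes drawn and the furthest in 5.

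The sample closest to the T-DCs was T-mDC 1. It held the highest of the 6 other values for 16 of 25 members (64%, against 18.3% of the 5698 genes), N-mDC 3 for 6 and N-mDC 2 for 3. T-mDC 1 was above both T-mDC 2 and T-mDC 3 in 25 of 25 members (45.6% of the 5698 genes) and at least 2 times both in 18 (72%, against 5.04%). The gap was widest for Cyp2ab1 (46.3 times the mean of T-mDC 2 and T-mDC 3), Thbd (17.1 times), Smpdl3b (11.8 times) and Nfe2 (11.5 times). Among N-mDCs, N-mDC 1 was the lowest for 22 of 25 members (88%, against 25.0%). The nonclassical monocyte sum of T-mDC 1 (2741 FPKM) was also above that of T-mDC 2 and T-mDC 3 (1053 and 1061 FPKM), and its part in these differences was not tested. Without T-mDC 1, the rule would have chosen 74 genes.

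The rule held T-mDCs and N-mDCs under the same bound and did not use their difference. That contrast asks whether these genes also moved in the mature DCs of the leukemic spleen. With limma on log2(FPKM + 1), 0 of the 25 members were called higher and 0 lower at an adjusted p under 0.05. Of the 12746 tested genes, 0.69% were called higher and 1.52% lower. All 25 members passed the filter on low values because the rule set every T-DC value at 5 FPKM or more. At an unadjusted p under 0.05, 4 of 25 members were lower and 0 higher, against 9.6% of all tested genes lower and 16.7% in either direction. The 4 were Tmc6 (log2 difference -0.96, SE 0.31, limma adjusted p = 0.169), Tmc8 (-0.91, SE 0.33, adjusted p = 0.211), Trem3 (-1.20, SE 0.50, adjusted p = 0.276) and Slc16a10 (-1.18, SE 0.49, adjusted p = 0.279). The median difference of the 25 genes was -0.31, and 4 of 25 lay above 0 (Pheta2 0.54, Cpd 0.21, Mxi1 0.13 and Cdkn2d 0.07, none past the threshold). Over all 12746 tested genes the median was 0.027, and 6719 lay above 0. Pheta2 passed the filter only through its T-DC values, and its N-mDCs were 0.483, 0.919 and 0.615 FPKM. On simulated data the test recovered 24.2% of genes changed 2-fold and 79.7% of those changed 4-fold, so most 2-fold changes were missed there. The simulated samples were independent and the changed genes were drawn from all tested genes, so the share recovered among the 25 was not measured. The 0 calls do not show that the 25 were unchanged.

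For no member did the 3 T-mDC values lie apart from the 3 N-mDC values, against 35.0% of all tested genes. T-mDC 2 and T-mDC 3 lay below every N-mDC sample for 20 of 25 members (80%, against 24.9% of the 5698 genes). T-mDC 1 lay above every N-mDC sample for 16 of 25 members. The share of the 5698 genes that did so was not counted, so the 16 are not read as a feature of the members. Without T-mDC 1, Tmc6 (-1.33, limma adjusted p = 0.0413) and Tmc8 (-1.29, adjusted p = 0.0484) were called lower, with 1.45% of all tested genes called lower in that fit. With each sample weighted by its fit, 8 members were called lower, with 15.3% of all tested genes called lower in that fit, among them Tmc6, Tmc8, Slc16a10, Trem3, Spata13, Rffl and Thbd. T-mDC 2 and T-mDC 3 were much closer to each other than other replicates (chi-square per gene of 1.80 against 5.30 or more for genes with at least 20 and under 200 summed reads), and with their mean as a single sample 0 members were called.

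**Figure D5:**
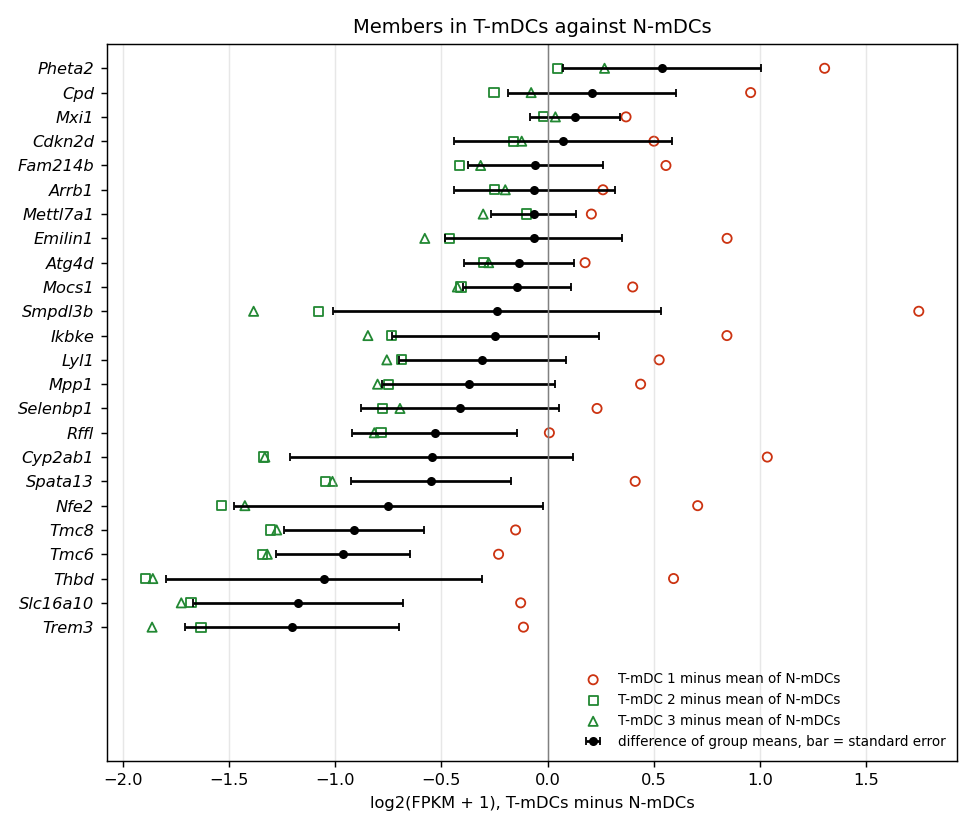
Black points give the difference of T-mDCs and N-mDCs on the log2(FPKM + 1) scale with its standard error from limma (n = 3 per group), and open symbols give each T-mDC sample minus the mean of the N-mDCs. T-mDC 1 (red circles) lies to the right of T-mDC 2 and T-mDC 3 in all 24 genes drawn.

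Among the marker and function lists, 4 members were listed: Nfe2 (megakaryocyte and platelet genes, and myeloid transcription factors), Thbd (complement and coagulation), Trem3 (paired and lectin receptors) and Smpdl3b (lysosomal enzymes). Of the 675 listed and tested genes, limma called 38 higher in T-DCs and 141 lower when N-mDCs were the reference (6.1% and 10.3% over all tested genes). With T-mDCs as the reference it called 97 higher and 96 lower (5.44% and 8.79%). The rule used the same contrasts for the members, so nothing is read from them here for the 4. Without T-DC 1, the counts against N-mDCs were 125 and 222 of 668 listed genes, with 2557 and 2411 of all 12587 tested genes called in that fit. The nonclassical monocyte genes had 8 of 20 higher than in N-mDCs and 13 of 20 higher than in T-mDCs, with 0 lower in both contrasts (2 lower than in N-mDCs without T-DC 1), and 10 of 21 stood above every other sample in all T-DC samples. The first of these in ratio were Ace (1.93), Pglyrp1 (1.89) and Spn (1.79), short of the limit of 2. The erythroid genes had 7 of 22 higher against N-mDCs and 20 against T-mDCs, and 0 lower, and without T-DC 1 all 21 tested genes were higher than in N-mDCs.

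Genes on both sides of each limit had close values. Just inside the ratio stood Thbd (2.02), Emilin1 (2.03) and Mettl7a1 (2.03), and just outside it Hp (1.99), the gene of the hemoglobin scavenger haptoglobin, Golm1 (1.99) and G430095P16Rik (1.98). By level, Rffl (6.15 FPKM), Ikbke (8.46 FPKM) and Emilin1 (8.62 FPKM) were the lowest members, and Dclre1b (4.92 FPKM), Ip6k3 (4.68 FPKM) and Uhrf1bp1 (3.89 FPKM) fell below 5 FPKM in their lowest T-DC sample. The median ratio of the 25 was 2.26, and 2 genes (Nfe2 and Pheta2) kept a ratio of 3. Every T-DC sample was above every other sample for 770 of the 5698 genes (13.5%). The member with the fewest reads in its lowest T-DC sample had 380 there.

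On the genome (build mm10 in the processing notes), the 25 genes lay on 16 chromosomes. Besides Tmc6 and Tmc8, 1 other pair, Atg4d and Cdkn2d, had no protein-coding gene lying wholly between them. They lie on chromosome 9, 10637 bases apart on opposite strands. Genes that overlap a member, such as Kri1 with Atg4d, were not counted here, so the pair need not be neighbours. Lyl1 (with Nfix), Mpp1 (with Dkc1), Pheta2 (with Smdt1), Atg4d (with Kri1) and Rffl (with Lig3) overlap another gene. Whether reads were counted by strand is not given in the sources used here, so reads of such pairs may be shared. None of these partners stood at 2 times all other samples in every T-DC sample, and the closest was Nfix with a ratio of 1.76 and 7.87 to 14 FPKM in T-DCs.

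The promoters of the members were read to see whether short binding motifs recur in genes that share the T-DC pattern. RefSeq promoter windows (250 bases before to 50 after a RefSeq start, GRCm38.p6) were found for 20 of the 25 genes. None was found for Nfe2, Thbd, Trem3 and Arrb1, among others, and 16493 protein-coding promoters served for comparison. The RefSeq start nearest the gene start of the deposited data was used. It lay 1910 bases from it for Pheta2, 1506 for Tmc6, 704 for Spata13, 677 for Mettl7a1 and 384 for Emilin1. Tmc6, Mettl7a1 and Emilin1 are among the promoters with a PU.1 match below. On both strands, 12 motifs were searched. The PU.1 core GAGGAA, of the master factor of myeloid cells, was in 8 of 20 member promoters (40%, exact 95% interval 19.1 to 63.9%) and in 27.1% of all promoters. The RUNX core TGTGGT was in 4 of 20 (20%, interval 5.73 to 43.7%, against 14.8%) and the E-box CACGTG in 4 of 20 (20%, against 8.11%). The GATA motif AGATAA was in 3 of 20 (15%, against 9.70%), the C/EBP motif TTGCNNAA in 2 (10%, against 10%), the AP-1 motif TGANTCA in 1 (5%, against 7.0%), the KLF motif CCACCC in 7 (35%, against 33.3%) and the GC box GGGCGG in 12 (60%, against 48.2%). The NRF2 and MAF site TGACNNNGC, the STAT motif TTCNNNGAA, the ISRE and the NF-kB motif were in 0 of 20 (13.3%, 7.82%, 3.47% and 0.406% of all promoters). The exact interval of each of the 12 member shares included the share of all promoters (for a motif in 0 of 20 it reached 16.8%). In a shorter window of 200 bases before the start, PU.1 was again in 8 of 20 (interval 19.1 to 63.9%). The share of all promoters fell from 27.1% to 18.1%, just below that interval. The intervals were not adjusted for the 12 motifs and both windows searched, so nothing is read from this one. A match is a description of letters only.

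The promoters of 4 members are printed to show these matches in genes of different T-DC patterns: Lyl1 (high in all 3), Rffl and Mpp1 (lowest in T-DC 1) and Cyp2ab1 (highest in T-DC 1). They are the 250 bases before the start, 5′ to 3′ on the strand of the gene, from RefSeq (GRCm38.p6), at chr8:84701207-84701456 (+), chr11:82871211-82871460 (-), chrX:75131017-75131266 (-) and chr16:20325405-20325654 (-). Capitals mark matches to the PU.1, GATA, RUNX and C/EBP motifs on either strand.
Lyl1: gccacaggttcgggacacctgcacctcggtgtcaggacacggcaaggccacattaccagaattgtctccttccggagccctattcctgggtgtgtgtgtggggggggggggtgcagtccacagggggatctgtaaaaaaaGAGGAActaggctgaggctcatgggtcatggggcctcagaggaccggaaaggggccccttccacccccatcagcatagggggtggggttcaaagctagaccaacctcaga
Rffl: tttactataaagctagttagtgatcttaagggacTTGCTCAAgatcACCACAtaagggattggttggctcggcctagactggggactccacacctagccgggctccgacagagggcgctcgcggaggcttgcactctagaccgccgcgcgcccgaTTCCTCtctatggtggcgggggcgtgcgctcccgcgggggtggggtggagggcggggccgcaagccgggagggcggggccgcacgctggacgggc
Mpp1: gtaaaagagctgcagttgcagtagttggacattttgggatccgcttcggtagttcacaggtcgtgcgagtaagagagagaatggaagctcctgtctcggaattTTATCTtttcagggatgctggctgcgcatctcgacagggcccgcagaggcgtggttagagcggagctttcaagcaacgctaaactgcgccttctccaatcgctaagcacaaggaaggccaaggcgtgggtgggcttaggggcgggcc
Cyp2ab1: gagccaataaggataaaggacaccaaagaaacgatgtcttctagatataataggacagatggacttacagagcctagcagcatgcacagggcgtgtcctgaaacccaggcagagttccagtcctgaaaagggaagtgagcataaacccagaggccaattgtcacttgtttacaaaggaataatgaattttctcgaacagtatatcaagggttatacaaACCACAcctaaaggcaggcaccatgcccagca

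In Lyl1 the capitals are a PU.1 match that begins 110 bases before the start. In Rffl they are, in order, a C/EBP match, a RUNX match and a PU.1 match, the last 2 on the reverse strand. Mpp1 holds a GATA match on the reverse strand, and Cyp2ab1 a RUNX match on the reverse strand that begins 32 bases before the start.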

How the data were processed

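RNA-seq of 9 samples was analysed, in 3 groups of 3 taken from the labels. The authors deposited FPKM for 54532 genes, and the submitters' processing notes name build mm10. The aligner, the counter and strand use are not given in the sources used here. Whole reads could be recovered from FPKM and gene length (largest deviation 4.56e-05 of a read), and they summed to between 15360815 and 18440913 per sample. The library size used in the FPKM was not this sum, at 15498648 against 16977553 reads for T-DC 2. The table has 0 value columns outside the 9 samples.

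Members were chosen on FPKM as deposited. The members and lists were chosen with earlier results of these data known. T-mDCs were compared with N-mDCs by limma 3.58.1 in R 4.3.3 after taking log2(FPKM + 1) of the 12746 genes that reached 1 FPKM in 3 or more samples. The 3 groups entered 1 model, eBayes used a trend, and p-values were adjusted by Benjamini-Hochberg with a threshold of 0.05. Adding 1 understates the fold of low genes. The fit was tested on simulated data. Motif intervals are exact binomial (Clopper-Pearson) at 95% and cover counting error only. Named genes were the members by ratio, level, evenness and list, those at the limits, and the markers Itgax, Flt3, Zbtb46, Cd74, Hbb-bt and S100a8, and the remaining members, their relatives and other markers were named with values known. Alternatives were other limits, TPM, median-of-ratios scaling, pseudocounts, filters, weights, a replicate block and leaving out each sample. The values of 1 member are not reported here, though it stays in the counts over the 25.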

Additional observations from a re-analysis of the deposited data

Results flagged for a closer look

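The rule was also met by 4 genes that are not protein-coding, which no comparison above uses. Their lowest T-DC values were 11.2 FPKM for the long noncoding RNA Gm11707, 14 FPKM for the small nucleolar RNA Gm22806, 5.59 FPKM for the small nuclear RNA Gm26110 and 6.59 FPKM for Gm44861, a transcript still to be experimentally verified, and each was above its N-mDC and T-mDC samples. Gm22806 and Gm26110 are short, at 136 and 165 bases. With 3 samples a group, single samples were not tested for being far from the others.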

How the results depend on the processing

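The number of genes past the rule, 25, was 21 at a minimum of 10 FPKM, 38 at 2 FPKM, 2 at a ratio of 3, 113 at a ratio of 1.5, and between 25 and 732 when a sample was left out, the highest without T-DC 1 (55 without T-DC 3, 74 without T-mDC 1, 38 without N-mDC 3). Rescaled to TPM, 27 genes passed and 14 of the 25 were kept. The 11 lost included Lyl1, Smpdl3b, Thbd, Tmc6, Trem3, Cyp2ab1, Emilin1, Ikbke, Cpd and Mettl7a1, so their membership depends on the scaling. An RNA of 57 bases, Gm23935, made up 19.8% of the summed FPKM of T-DC 3 and 1.34 to 4.57% of the others. With TPM over protein-coding genes, chosen after seeing the data, 26 passed and 14 were kept. There Cdkn2d was lost and Lyl1 kept, and the other losses were the same. At an evenness limit of 1.5, 6 members were even. Median-of-ratios scaling left the 25 as they were, but it could not change them, because its factor was 1.004 for all 9 samples.

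For T-mDCs against N-mDCs, members called lower rose from 0 to 8 with sample weights and lay between 0 and 2 with a sample left out, and all other settings run called 0 members in either direction. Over all genes, 88 were higher and 194 lower, against 30 and 77 with a pseudocount of 0.1, 31 and 80 with the filter at 5 FPKM, 362 and 488 with N-mDC and T-mDC samples alone, 1886 and 1955 with sample weights, 1 and 10 with the mean of T-mDC 2 and 3 as 1 sample, 109 lower with TPM, 120 lower with voom on recovered reads, and 1 to 443 higher and 10 to 578 lower with a sample left out. Correlations of same-numbered deviations were -0.47, -0.34 and 0.02 for N-mDCs with T-mDCs. They were 0.27, 0.22 and -0.18 for N-mDCs with T-DCs, and -0.07, -0.12 and 0.02 for T-DCs with T-mDCs. With 3 samples a group these values cannot decide whether the replicate numbers pair the samples. A replicate block gave 18 higher and 60 lower genes and 0 members. Listed genes in T-DCs without T-DC 1 were 125 higher and 222 lower than in N-mDCs and 181 higher than in T-mDCs. With 200 bases before the start, the E-box was in 5% of member promoters and the AP-1 motif in 0%, and PU.1 in 40%, against 18.1% of all promoters in that window and 27.1% in the main one. The cause of these changes was not tested.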
